A study of Mus musculus with 8 samples.

Results

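A set of 10 genes that carries a signal from Gi-coupled receptors to protein kinase A (PKA) was followed in mouse pancreatic islets with and without the cannabinoid 1 receptor (CB1R) of beta cells. They were 4 inhibitory G protein α subunits (*Gnai1*, *Gnai2*, *Gnai3* and *Gnao1*), the stimulatory subunit locus *Gnas*, 4 adenylyl cyclases (*Adcy5*, *Adcy6*, *Adcy8* and *Adcy9*) and the PKA regulatory subunit *Prkar1a*. All probes whose transcript accession maps to these symbols were taken, which gave 16 probes for the 10 genes out of 55681 probes on the array. Of these, 13 were bright enough to be compared, at least 1 for each gene, among 39160 compared probes, of which 22129 had a symbol and covered 16955 genes. The comparison asked which of these components islets express and whether any of them shifts when the receptor is lost.

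Islets came from 4 β-CB1R+/+ and 3 β-CB1R-/- male mice on standard diet, strain C57BL/6. The receptor gene *Cnr1* carried loxP sites (*Cnr1* flox/flox) in both groups, and only β-CB1R-/- mice carried MIP-Cre/ERT, a tamoxifen-inducible Cre under the mouse insulin promoter. In the study's design both genotypes were injected with tamoxifen. No group with the Cre transgene alone is among the arrays, so that receptor loss and the transgene cannot be told apart. The sample labels call the groups CB1 WT and CB1 KO and their husbandry text speaks of a global knockout, whereas the series title names the beta cell-specific one. Age at islet isolation is not given in the labels. Each mouse had 1 single-colour Agilent array, except β-CB1R-/- replicate 2, which had a repeat array. The 8 arrays shared 1 slide with the genotypes on opposite sides, so that position and genotype cannot be told apart. Between 33308 and 39989 probes per array were well above background. Handpicked islets hold several cell types and some exocrine tissue, so that fewer cells of a type and less RNA per cell cannot be told apart.

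Gi proteins are heterotrimers of α, β and γ subunits. On receptor activation the αi and αo subunits and the βγ dimer separate; αi inhibits adenylyl cyclase and βγ can open inwardly rectifying potassium (GIRK) channels. The stimulatory subunit Gsα activates adenylyl cyclase downstream of incretin receptors, and the cAMP formed releases the catalytic subunits of PKA from regulatory subunits such as RIα, encoded by *Prkar1a*. In beta cells cAMP augments glucose-stimulated insulin secretion, and Gi-coupled receptors restrain it.

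Values below are log2 intensities after subtraction of the array's 75th percentile, in the order of the replicate numbers. Differences are β-CB1R-/- minus β-CB1R+/+ on the log2 scale with a standard error (SE) from limma, and adjusted p-values cover all 39160 compared probes. Intensities of different probes are not comparable as levels, so that no order among isoforms is given.

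*Cnr1*, the targeted gene, was measured first. Its values were -1.11, -0.77, -0.53 and -0.02 in β-CB1R+/+ mice and -2.30, -3.13 and -2.28 in β-CB1R-/- mice. Every β-CB1R-/- mouse was below every β-CB1R+/+ mouse, in the direction of the labels. The probe was well above background on 7 of 8 arrays; on 1 of the 2 arrays of β-CB1R-/- replicate 2 it was not, at -3.32, where the lowest intensity well above background was -3.30. The difference was -1.97 (SE 0.33), with an adjusted p of 0.193 in limma and 0.0286 in an exact permutation test (two-sided), the smallest p that 4 against 3 mice allow. With normexp background correction the difference was -1.08. Whether the probe lies within the deleted part of the gene was not determined. If the knockout is beta cell-specific, as the series title says, islet cells other than beta cells keep the receptor gene.

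All 10 genes gave signal in islets. The brightest probes of *Gnai2*, *Gnai3*, *Gnao1*, *Gnas*, *Adcy5*, *Adcy6*, *Adcy8*, *Adcy9* and *Prkar1a* were well above background on all 8 arrays, and that of *Gnai1* on 7. The remaining 3 probes were dim: a further *Gnas* probe and a further *Adcy5* probe were above background on no array, and another *Adcy5* probe on 2, both β-CB1R+/+. Among related genes, the other adenylyl cyclases *Adcy4* and *Adcy7* were detected on all 8 arrays and *Adcy3* on 6. *Adcy10* was detected on all 8 by 1 of its 3 probes and on none by the others, *Adcy2* was detected on 1 array and the single probe of *Adcy1* on none. *Gnaz*, another α subunit of the Gi class, was detected on all 8 arrays, and the α subunit genes *Gnat1*, *Gnat2* and *Gnat3* were detected on 2, 8 and 4. All 8 other genes for PKA subunits and PKA inhibitors, among them the catalytic subunits *Prkaca* and *Prkacb*, were detected on all 8 arrays.

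**Figure D1:**
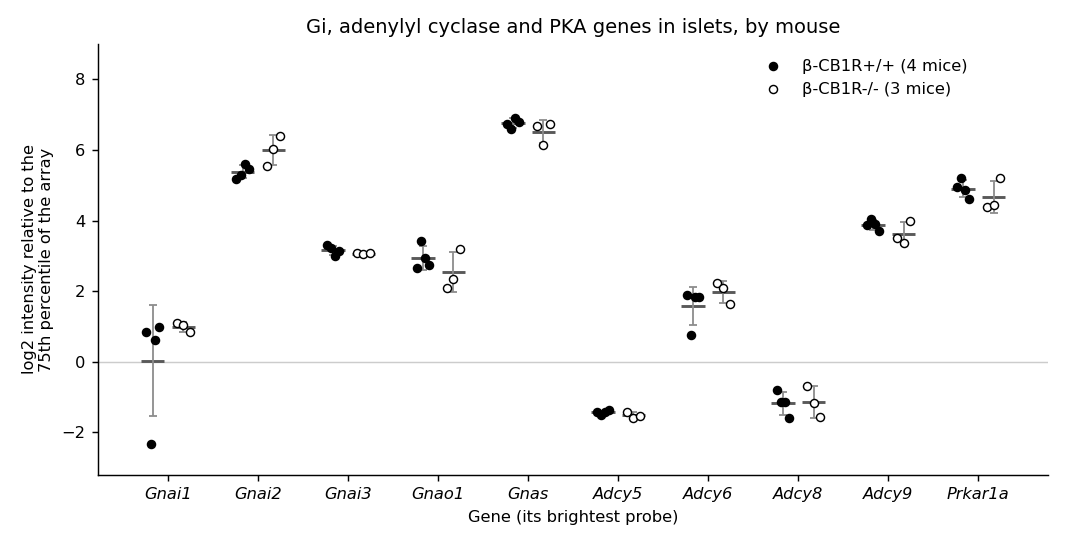
log2 intensity relative to the 75th percentile of the array (y axis) for the brightest probe of each gene (x axis). Points are mice (filled, 4 β-CB1R+/+; open, 3 β-CB1R-/-), lines are means and bars SD. The genotypes overlap for all 10 genes, and *Gnai1* has 1 β-CB1R+/+ mouse at -2.32, far below the others. Heights compare mice within a gene, not genes.

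None of the 13 compared probes passed the adjusted threshold of 0.05 in limma, where 0.11% of all compared probes did. At an unadjusted p under 0.05, 1 of the 10 genes (*Gnai2*) passed on its brightest probe, against 3.9% of all genes, and 2 of the 13 compared probes, against 3.59% of all probes. The genotypes overlapped for all 10 genes on the brightest probe, where 4.83% of all genes did not overlap. The mean was higher in β-CB1R-/- islets for 4 genes and lower for 6, where 44.3% of all genes were higher, with a median difference of -0.09, beside -0.04 over all genes. The 95% confidence interval of the difference lay inside a 2-fold change in either direction for 6 of the 10 genes (*Gnai3*, *Gnas*, *Adcy5*, *Adcy8*, *Adcy9* and *Prkar1a*), as it did for 66.9% of all genes. For the other 4 (*Gnai1*, *Gnai2*, *Gnao1* and *Adcy6*) a 2-fold change was within the interval. These intervals are those of the brightest probes. That of the second *Gnas* probe, -1.70 to -0.26, held a 2-fold change.

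**Figure D2:**
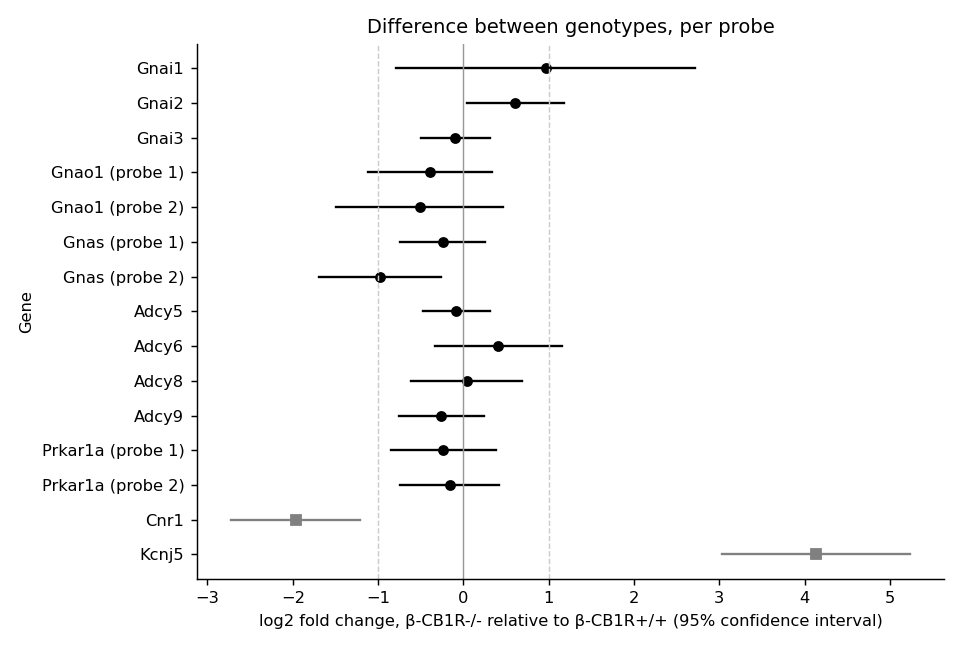
log2 fold change of β-CB1R-/- relative to β-CB1R+/+ islets (x axis) with its 95% confidence interval from limma, for the 13 compared probes (circles) and, for scale, *Cnr1* and the GIRK channel gene *Kcnj5* (squares). Dashed lines mark a 2-fold change. The intervals of *Gnai2* and the second *Gnas* probe lie to one side of 0 before adjustment for the number of probes.

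Among the inhibitory subunits, *Gnai2*, the Gαi isoform found in most cell types including leucocytes, had the smallest unadjusted p on a brightest probe. Its values were 5.18, 5.29, 5.60 and 5.45 in β-CB1R+/+ mice and 5.55, 6.02 and 6.40 in β-CB1R-/- mice. The 2 brightest mice were β-CB1R-/-, but β-CB1R-/- replicate 1 lay below β-CB1R+/+ replicate 3. The difference was 0.61 (SE 0.25, 95% interval 0.04 to 1.18), with an unadjusted p of 0.039 and an adjusted p of 0.999 in limma. The unadjusted p was above 0.05 in 7 of 17 alternative settings, and without β-CB1R-/- replicate 3 the difference was 0.40 (unadjusted p = 0.128 in limma). The 10 macrophage markers were also higher on average (9 of 10 genes, median 0.37); their mean per mouse ranged from -0.41 to 0.30 in β-CB1R+/+ and from -0.15 to 0.51 in β-CB1R-/- mice (exact permutation p = 0.257), and their part in the *Gnai2* difference was not tested.

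*Gnai3*, which encodes the closely related Gαi3, varied little. It measured 3.30, 3.22, 2.99 and 3.13 in β-CB1R+/+ mice and 3.08, 3.04 and 3.07 in β-CB1R-/- mice. Its difference of -0.09 had a 95% interval from -0.50 to 0.31, and 2.51% of all genes had a smaller SD over the 7 mice.

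*Gnao1*, which encodes the αo subunit abundant in neurons and endocrine cells, was measured by 2 compared probes. The brighter one gave 2.65, 3.41, 2.93 and 2.74 in β-CB1R+/+ mice and 2.10, 2.34 and 3.19 in β-CB1R-/- mice. Of the β-CB1R-/- mice, 2 lay below all β-CB1R+/+ mice and replicate 3 lay among them, so that the difference of -0.39 (95% interval -1.12 to 0.34) did not exceed the spread between mice. The second probe gave a like difference of -0.51 (SE 0.42).

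*Gnai1*, the third Gαi gene, had the widest spread of the 10 genes. Its values were 0.83, -2.32, 0.61 and 0.98 in β-CB1R+/+ mice and 1.10, 1.04 and 0.83 in β-CB1R-/- mice. Apart from β-CB1R+/+ replicate 2 the mice lay close together, and the difference of 0.96 (SE 0.76) fell to 0.18 without that mouse. On its array the single *Gnai1* spot had an intensity of 57.8, against 404 to 645 on the other arrays, with a local background of 28 units against 22 to 29. The spot was not well above background there, so that -2.32 is a value at background, and the difference of 0.96 rests on it. It was not marked as an outlier and lay in column 6 of 164 columns on the array.

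Low spots were more frequent on this array than on the other 7, most of all near that edge. Among spots with a median above the 75th percentile in the other mice, 102 of 838 (12.2%) in columns 1 to 10 of the β-CB1R+/+ replicate 2 array lay more than 2 below that median on the log2 scale. In columns 11 to 164 of the same array the share was 2.39%. On the other 7 arrays it was 0.114 to 1.25% in columns 1 to 10 and 0.194 to 0.844% in the remaining columns. The 3 genes whose profile over the 7 mice was most like that of *Gnai1*, by the root mean square difference of centred log2 values among 16939 genes, were *Anapc1* (0.16), *Fbxo17* (0.161) and *Grn* (0.181). They shared its low value in β-CB1R+/+ replicate 2, and their spots lay in columns 2, 6 and 3. The column limit was chosen after the positions of these spots were seen, and the part of spot position in the *Gnai1* value was not tested.

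**Figure D3:**
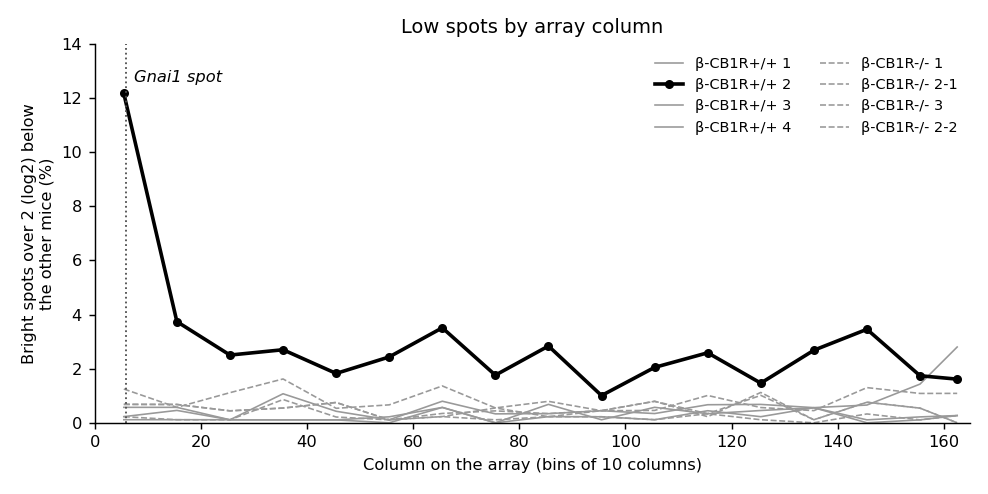
Share of bright spots (%) that lay more than 2 below the median of the other mice on the log2 scale (y axis) by column on the array in bins of 10 columns (x axis), 1 line per array (solid, β-CB1R+/+; dashed, β-CB1R-/-). The thick line, β-CB1R+/+ replicate 2, starts at 12.2% in columns 1 to 10, where the *Gnai1* spot lies (dotted line).

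*Gnas* is a complex imprinted locus with several starts, whose main product is Gsα. The brightest probe gave 6.73, 6.58, 6.92 and 6.79 in β-CB1R+/+ mice and 6.68, 6.14 and 6.74 in β-CB1R-/- mice. The genotypes overlapped, and the difference was -0.24 (95% interval -0.74 to 0.26). It was -0.05 without β-CB1R-/- replicate 2, the lowest mouse, and -0.10 with normexp background correction.

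A second *Gnas* probe, designed to another transcript accession of the locus, separated the genotypes. It gave 4.12, 4.45, 4.57 and 4.26 in β-CB1R+/+ mice and 3.48, 2.68 and 3.95 in β-CB1R-/- mice. All 3 β-CB1R-/- mice lay below all 4 β-CB1R+/+ mice, which made it 1 of 13 compared probes of the 10 genes without overlap, where 4.12% of all compared probes had none. The difference was -0.98 (SE 0.31, 95% interval -1.70 to -0.26), with an unadjusted p of 0.013 and an adjusted p of 0.999 in limma. Without β-CB1R-/- replicate 2 the difference was -0.63, the smallest of a range to -1.27 when each mouse was left out. The second probe was singled out after its values were seen.

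The difference between the 2 *Gnas* probes within an array does not depend on a scaling factor of the array. It was -2.41 ± 0.22 (SD, n = 4) in β-CB1R+/+ and -3.15 ± 0.34 (SD, n = 3) in β-CB1R-/- mice, with no overlap (exact permutation p = 0.0286, the smallest possible, unadjusted for the 3 genes with a probe pair). The second probe had been singled out by the same values, so that this p is not separate support. In the same comparison the probe pairs of *Gnao1* (exact permutation p = 0.543) and *Prkar1a* (exact permutation p = 0.486) overlapped between genotypes. With the deposited Z scores the *Gnas* groups overlapped (exact permutation p = 0.0857). The product that the second probe reports was not determined. Of the 7 alpha cell markers 6 had a lower mean, where 44.3% of all genes had a higher one, with a median difference of -0.59 and none past the adjusted threshold. Their mean per mouse was 2.83 to 3.22 in β-CB1R+/+ and 2.26 to 2.80 in β-CB1R-/- mice (exact permutation p = 0.0571). Their part in the *Gnas* difference was not tested.

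The RefSeq table (GRCm38.p6) holds 4 start windows for *Gnas*. The first and the last are shown because they lie at the ends of the locus's series of starts, as the 250 bases before the start on the + strand, at chr2:174284070-174284319 with 61.6% GC and at chr2:174329756-174330005 with 80.0% GC. Capitals mark CGTCA, the half-site of the cAMP response element, which PKA-activated CREB binds.

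Gnas first start: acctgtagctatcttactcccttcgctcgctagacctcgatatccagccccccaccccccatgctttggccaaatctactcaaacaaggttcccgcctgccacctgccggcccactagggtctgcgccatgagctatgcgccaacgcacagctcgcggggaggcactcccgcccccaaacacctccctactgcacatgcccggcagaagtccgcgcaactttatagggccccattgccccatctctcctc

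Gnas last start: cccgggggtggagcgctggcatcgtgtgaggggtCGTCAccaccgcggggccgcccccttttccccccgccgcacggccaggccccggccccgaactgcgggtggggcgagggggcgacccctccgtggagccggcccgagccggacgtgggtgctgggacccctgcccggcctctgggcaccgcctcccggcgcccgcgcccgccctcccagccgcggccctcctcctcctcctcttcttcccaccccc

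**Figure D4:**
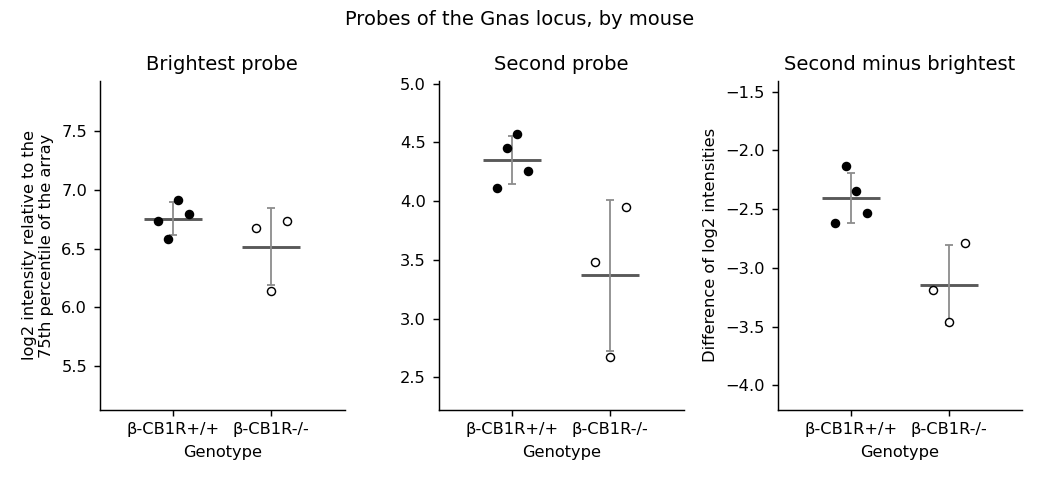
log2 intensity relative to the 75th percentile of the array for the 2 compared *Gnas* probes and, at the right, their difference within each array (y axes, each spanning 2.8 log2 units) by genotype (x axis). Points are mice (filled, 4 β-CB1R+/+; open, 3 β-CB1R-/-), lines are means and bars SD. The genotypes overlap for the brightest probe and not for the second probe or the difference.

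No adenylyl cyclase passed the threshold, and the genotypes overlapped for all 4. *Adcy9*, a widely expressed cyclase, measured 3.88, 4.04, 3.90 and 3.71 in β-CB1R+/+ mice and 3.52, 3.36 and 3.99 in β-CB1R-/- mice. The first 2 β-CB1R-/- mice were below all β-CB1R+/+ mice and replicate 3 was not, with a difference of -0.26 (95% interval -0.76 to 0.24). *Adcy6*, a cyclase inhibited by Gαi and by calcium, measured 1.88, 0.77, 1.82 and 1.83 in β-CB1R+/+ mice and 2.22, 2.09 and 1.64 in β-CB1R-/- mice. β-CB1R+/+ replicate 2 was again the low mouse, and the difference of 0.41 (95% interval -0.34 to 1.15) was 0.14 without it. The *Adcy6* spot lay in column 27, away from the edge. The genes most like *Adcy6* over the mice were *Oscp1* (0.083), *Tmem131* (0.089) and *Rpl7a* (0.102), in columns 2, 13 and 31.

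*Adcy8*, a calcium- and calmodulin-stimulated cyclase, measured -0.81, -1.14, -1.14 and -1.59 in β-CB1R+/+ mice and -0.67, -1.16 and -1.57 in β-CB1R-/- mice. The genotypes overlapped, with β-CB1R-/- replicate 1 the highest mouse and β-CB1R+/+ replicate 4 the lowest. The difference was 0.04 (95% interval -0.61 to 0.68). *Adcy5*, the Gαi-inhibited cyclase closest to *Adcy6*, was the steadiest gene of all 10. It measured -1.42, -1.50, -1.43 and -1.37 in β-CB1R+/+ mice and -1.41, -1.60 and -1.53 in β-CB1R-/- mice. Its difference was -0.08 (95% interval -0.47 to 0.31), and 0.749% of all genes had a smaller SD over the 7 mice.

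*Prkar1a*, the regulatory subunit that holds PKA inactive until cAMP binds, was measured by 2 compared probes. The brighter one gave 4.94, 5.20, 4.86 and 4.61 in β-CB1R+/+ mice and 4.37, 4.43 and 5.20 in β-CB1R-/- mice. β-CB1R-/- replicate 3 equalled the highest β-CB1R+/+ mouse to 2 decimals while the other 2 were the lowest of all, and the difference was -0.23 (95% interval -0.85 to 0.38). The second probe gave -0.16 (95% interval -0.74 to 0.42).

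Among the members with a promoter in the RefSeq table, *Prkar1a* alone had a window with the full cAMP response element TGACGTCA, which reads the same on both strands. The motif lay in 588 of 32851 promoter windows (1.79%), each from 250 bases before a start to 50 after it, and in 2 of the 15 windows of 7 members, overlapping *Prkar1a* windows that share 1 copy. The half-site TGACG or CGTCA, which also counts the full element, lay in 20.8% of all windows and in 8 of the 15. These 8 belong to 4 of the 7 genes and include overlapping *Gnas* and *Prkar1a* windows that share a copy, so that they are not separate sites and the shares are not comparable. *Gnai2*, *Adcy6* and *Adcy8* were not among the 7. The 250 bases before one *Prkar1a* start, at chr11:109650699-109650948 on the + strand, are shown because they hold the element, which begins 49 bases before the start. Capitals mark it and a separate half-site.

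Prkar1a start: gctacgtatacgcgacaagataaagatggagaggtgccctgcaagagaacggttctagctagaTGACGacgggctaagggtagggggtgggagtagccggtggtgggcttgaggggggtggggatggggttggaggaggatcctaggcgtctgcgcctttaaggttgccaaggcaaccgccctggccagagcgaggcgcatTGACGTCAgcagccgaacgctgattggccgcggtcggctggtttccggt

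A pattern between mice of one genotype crossed 5 of the 10 genes. *Gnao1*, *Adcy9* and *Prkar1a* each had their highest β-CB1R+/+ value in replicate 2 and their highest β-CB1R-/- value in replicate 3, and *Gnai1* and *Adcy6* had their lowest value of each genotype in these mice. *Gnas* was lowest in the first of them and highest in the second, and the other 4 genes were not at an end of the range in both mice. The same mice had the lowest mean of the 11 compared acinar cell markers in their genotype, 9.42 in β-CB1R+/+ replicate 2 (10.29 to 10.54 in the other 3) and 9.61 in β-CB1R-/- replicate 3 (10.70 and 10.73 in the other 2). They also had the lowest mean of the duct, endothelial, and stellate and fibroblast markers in their genotype. Their beta cell marker mean was the highest of their genotype. It was 6.78 in β-CB1R+/+ replicate 2 (6.33 to 6.63 in the other 3). In β-CB1R-/- replicate 3 it was 6.53 (6.06 and 6.18 in the other 2). The delta and PP cell marker mean was lowest in β-CB1R+/+ replicate 2 (4.22) and highest in β-CB1R-/- replicate 3 (4.80). The alpha cell marker mean was highest in β-CB1R-/- replicate 3 (2.80) but not in β-CB1R+/+ replicate 2 (3.12). Without β-CB1R-/- replicate 3, 5 of the 10 genes no longer overlapped between genotypes, beside 29.9% of all genes (4.83% with all mice). Of the 5, *Gnao1*, *Adcy9* and *Prkar1a* were lower and *Gnai1* and *Adcy6* higher. The differences were then -0.72 for *Gnao1*, -0.44 for *Adcy9* and -0.50 for *Prkar1a*. Leaving out another β-CB1R-/- mouse made them smaller, down to -0.17 for *Gnao1* and -0.09 for *Prkar1a* without replicate 1 and -0.13 for *Adcy9* without replicate 2. The share of all genes without overlap was 11.0% without β-CB1R-/- replicate 1 and 7.37% without β-CB1R-/- replicate 2. This pattern was noticed after the values were seen, and the part of these cell types in it was not tested. The *Gnai1* value of β-CB1R+/+ replicate 2 is at background, on the array with more low spots than the other 7.

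Beyond the 10 genes, 112 of 123 listed genes of Gi and cAMP signalling were compared. The mean was higher in β-CB1R-/- islets for 42 and lower for 70, with a median difference of -0.12, and 1 passed the adjusted threshold, against 0.171% of all genes. The genotypes did not overlap for 7 genes, 2 higher and 5 lower, where 2.61% of all genes were higher and 2.22% lower without overlap.

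The gene past the threshold was *Kcnj5*, which encodes GIRK4, a subunit of the potassium channels that Gβγ opens. It measured -4.39, -2.64, -4.03 and -3.24 in β-CB1R+/+ mice and -0.21, 1.05 and 0.83 in β-CB1R-/- mice. The genotypes were far apart, but on 2 of the 4 β-CB1R+/+ arrays the probe was not well above background. It therefore met the limit of 3 mice only together with β-CB1R-/- mice, the group in which it is high, so that its call is conditional on the filter. With no filter on dim probes the adjusted p was 0.0542 in limma. The difference was 4.13 (SE 0.48, adjusted p = 0.0318 in limma), and with the dim arrays set to their lowest intensity well above background *Kcnj5* was at least 12.7-fold higher on these intensities. With normexp background correction the difference was smaller, at 2.23. The call did not hold in 10 of 16 alternative settings (adjusted p 0.0081 to 0.476 in limma), while the direction held in all 16. The other compared GIRK genes, *Kcnj3* (0.07) and *Kcnj9* (0.19), had intervals that included 0, and *Kcnj6* was too dim to compare.

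Of the Gβ and Gγ subunits, the partners of Gα in the heterotrimer, 11 of 13 compared genes had a lower mean in the β-CB1R-/- group (median -0.25), beside 9444 of 16955 genes over the whole array (median -0.04). None passed the adjusted threshold. For 3 of them the genotypes did not overlap, where 2.22% of all genes were lower without overlap. *Gng12* gave 3.93, 4.43, 4.03 and 3.76 in β-CB1R+/+ mice and 3.25, 3.10 and 3.73 in β-CB1R-/- mice, a difference of -0.68 (SE 0.25). β-CB1R-/- replicate 3 lay just below the lowest β-CB1R+/+ mouse, and the second *Gng12* probe overlapped. *Gng13* (-0.75, SE 0.21) and *Gnb4* (-0.57, SE 0.20) were the other 2, all with an adjusted p of 0.999 in limma. Endocrine markers had lower means in the same islets: alpha cell markers as given above, 9 of 10 beta cell markers (median -0.17) and 5 of 6 delta and PP cell markers (median -0.43). The highest beta cell marker mean of each genotype was in β-CB1R+/+ replicate 2 and β-CB1R-/- replicate 3, as was the highest *Gng12* value. *Gng13* was instead highest in replicate 2 of both genotypes (-1.46 and -2.08). *Gnb4* was highest in β-CB1R+/+ replicate 1 (-1.93) and β-CB1R-/- replicate 3 (-2.42). The part of these cells in the Gβ and Gγ differences was not tested.

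In the remaining lists no gene passed the adjusted threshold, and their counts stand beside 44.3% of all genes with a higher mean. The other Gα subunits had 5 higher and 4 lower of 9, the RGS and GPSM regulators of Gi 6 and 13 of 19, the other adenylyl cyclases 2 and 2 of 4, and the other PKA subunits and inhibitors 2 and 6 of 8. The A-kinase anchoring proteins had 4 higher and 7 lower of 11, the cAMP phosphodiesterases 9 and 7 of 16, EPAC and cAMP-gated effectors 4 and 4 of 8, the CREB family and coactivators 3 and 7 of 10, and CREB target genes 2 and 9 of 11. Single genes without overlap in these lists were *Rgs11*, *Akap7* and *Pde7b*. *Rgs11*, which accelerates GTP hydrolysis on Gα, differed by -0.21 (SE 0.20) in a fit that lacked β-CB1R+/+ replicate 2, whose spot was marked as an outlier. *Akap7*, a PKA anchoring protein, differed by -0.94 (SE 0.39) on its brightest probe and by -0.14 and -0.07 on its other probes.

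*Pde7b*, a cAMP-specific phosphodiesterase, differed by 0.35 (SE 0.19) on its brightest probe. Its second probe gave -4.78, -4.85, -5.75 and -5.90 in β-CB1R+/+ mice, none well above background, and -3.21, -1.81 and -1.50 in β-CB1R-/- mice, all well above it. With the β-CB1R+/+ arrays set to their lowest intensity well above background, the mean on that probe was at least 2.66-fold higher in β-CB1R-/- islets. The probe met the limit of 3 mice above background through the β-CB1R-/- mice alone, the group in which it is high, so that its difference is a description without a test.

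*Fos*, an immediate early target of CREB, varied between mice within each genotype far more than any member. It measured -0.82, -1.59, 6.31 and 5.34 in β-CB1R+/+ mice and 0.75, 5.84 and -0.71 in β-CB1R-/- mice. High and low mice occurred in both genotypes, and its difference of -0.35 had an SE of 2.33.

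**Figure D5:**
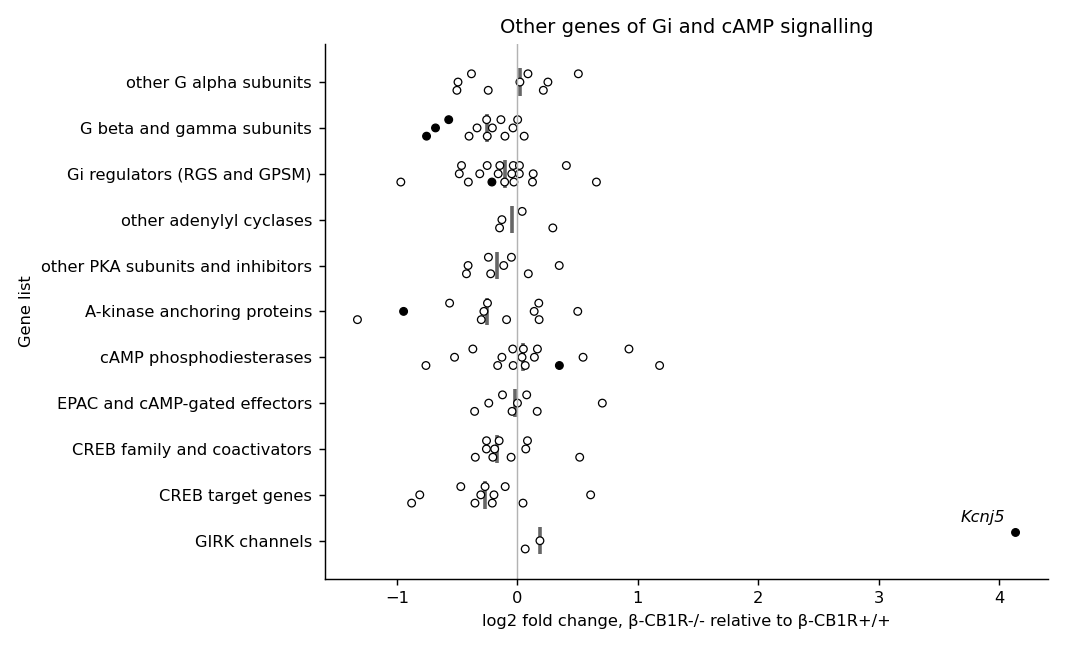
log2 fold change of β-CB1R-/- relative to β-CB1R+/+ islets (x axis) for the 112 compared genes of the 11 lists (y axis), each on its brightest compared probe. Filled points are the 7 genes whose genotypes do not overlap, and vertical bars are list medians. *Kcnj5* lies at 4.13, and 11 of 13 Gβ and Gγ genes lie below 0.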

How the data were processed

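RNA from islets of 4 β-CB1R+/+ and 3 β-CB1R-/- mice was hybridised to 8 single-colour arrays. The spot intensity that the authors deposited came from Feature Extraction 11.5.1.1, background-subtracted and detrended on each array but not scaled between arrays. A second deposited column, a score, equals the Z score of the log10 intensity on that array to within 0.00503.

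Here, the 75th percentile over the 59305 non-control spots of an array was subtracted from its log2 intensities. Non-uniform and population-outlier spots were omitted. Repeat spots of a probe, then both arrays of β-CB1R-/- replicate 2, were averaged, so that this mouse counts once. Probes detected above background in 3 or more of the 7 mice were compared with limma 3.58.1 in R 4.3.3 (lmFit and eBayes, two-sided) with Benjamini-Hochberg adjustment over 39160 probes, after tests on simulated data. Single values were also compared by exact permutation over the mice. Replicates are separate mice by their labels. No spot was saturated; the number of arrays limits the precision. Symbols came from matching probe accessions to RefSeq (GRCm38.p6), for names only, because the array header names mm9.

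The 10 genes and the gene lists were chosen with earlier results of these data known. Named genes were all 10 members with all probes, *Cnr1*, *Fos*, up to 5 genes per pathway list (past the adjusted threshold, then without overlap between genotypes), the 3 genes most like each of the 2 members with the largest SD, and the brightest gene of each marker list reported. Other names are of genes counted for detection or channel type, chosen after their values were seen. Of 9 marker lists none had a gene past the adjusted threshold; 1 further list is not reported here. Beside the alpha cell (brightest gene *Gcg*), macrophage (*Csf1r*) and acinar (*Cela3b*) lists used in the report, the median difference was -0.17 for beta cell (*Ins1*), -0.43 for delta and PP cell (*Sst*), 0.01 for duct (*Krt7*), 0.26 for T cell (*Cd4*), 0.04 for endothelial (*Plvap*) and 0.94 for stellate and fibroblast markers (*Dcn*). The median for acinar markers was 0.18, with 10 of 11 higher. Beta cell markers were detected on all arrays for all 10 genes.

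Alternatives were normexp background correction (offset 50, on median signals), quantile normalisation, the deposited Z scores, other filters, 1 repeat array only, a replicate block, an intensity trend, the methods' t-test and leaving out each mouse.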

Additional observations from a re-analysis of the deposited data

Results flagged for a closer look

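Each group of 4 β-CB1R+/+ mice was examined for a mouse set apart from the other 3 (Dixon's criterion), which chance meets in about 1 of 20 groups. Of 32 groups examined 3 met it, where chance gives 1.6, and all 3 were β-CB1R+/+ replicate 2. *Gnai1* was at -2.32 there, on the log2 scale relative to the 75th percentile, against 0.61 to 0.98 in the others. *Adcy6* was at 0.77, against 1.82 to 1.88. The second *Prkar1a* probe was at 2.33, against 1.68 to 1.78, and so was high in that mouse. Without this mouse the differences of *Gnai1* and *Adcy6* were 0.18 and 0.14.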

How the results depend on the processing

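No compared probe of the 10 genes passed the adjusted threshold under any of 17 alternatives. The direction of the difference held under all alternatives for 9 of the 10 genes. *Adcy8* reversed to -0.10 with a replicate block, to -0.10 without β-CB1R+/+ replicate 4 and to -0.19 without β-CB1R-/- replicate 1 (-0.19 to 0.25 when each mouse was left out), and its interval includes 0 in the main analysis too. The number of the 10 genes without overlap, 0 in the main analysis, was 1 with normexp (*Adcy5*; 4.44% of all genes) and 1 with the deposited Z scores (*Gnai2*; 4.05%), and 0 to 5 when each mouse was left out, where 6.62 to 29.9% of all genes had no overlap (5 and 29.9% without β-CB1R-/- replicate 3, 2 and 11.0% without β-CB1R-/- replicate 1, 2 and 6.62% without β-CB1R+/+ replicate 3). The number of pathway genes past the threshold, 1 (*Kcnj5*), was 0 with quantile normalisation, Z scores, no filter on dim probes, detection on all arrays, the replicate block and the methods' t-test, and 0 to 1 when each mouse was left out (0 without β-CB1R+/+ replicate 1, 3 or 4 or β-CB1R-/- replicate 2 or 3), where the *Kcnj5* difference was 3.86 to 4.52. The cause was not tested. With normexp the *Kcnj5* difference was 2.23 and that of *Cnr1* -1.08, the smallest of its range (to -2.14). The difference between the *Gnas* probes ranged from -0.94 to -0.58 on the log2 scale and kept its direction. With a mouse left out its exact permutation test cannot fall below 0.0667. Over the whole array 43 probes passed, 0 with the replicate block (1714 at unadjusted p under 0.05), 0 with the methods' t-test (1412) and 0 without β-CB1R-/- replicate 2 (785). The deviations of same-numbered mice correlated at 0.42 for replicate 1, -0.27 for replicate 2 and -0.06 for replicate 3, not over 0.1 in every pair, so that the numbers were not taken to pair the mice. The 4 and 3 arrays limit the precision: the median half-width of the 95% interval was 0.59 for the 10 genes, the same as for all genes.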
